A study of Mus musculus with 6 samples.

Results

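The 9 genes of lymphoid homing and of the resting T cell state were compared between regulatory T cells (Tregs) sorted from neonatal skin and from skin-draining lymph nodes (SDLNs). The genes were *Ccr7*, *S1pr1*, *Tcf7*, *Lef1*, *Il7r*, *Satb1*, *Bach2*, *Foxo1* and *Foxp1*. They were taken by symbol from GENCODE M21, and all 9 were found among the 49315 genes of the count table. Tregs are a CD4+ subset defined by the transcription factor Foxp3, and they hold other immune cells in check. Both groups came from 9-day-old mice with the Foxp3-GFP genotype, a reporter on a C57BL/6J background in which green fluorescent protein marks cells that express Foxp3. There were 3 skin and 3 SDLN libraries, and each sample pooled mice of both sexes, so spread between libraries is not spread between single animals. No treatment was given, all libraries carry the same batch label, and Tregs were gated as live CD45+ CD4+ Foxp3-EGFP+ cells.

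A naive or central T cell moves between blood and lymph node. CCR7, a receptor for the chemokines CCL19 and CCL21, guides it into the node, and S1P1 (the product of *S1pr1*) guides it out towards the sphingosine-1-phosphate of lymph and blood. TCF-1 (*Tcf7*), LEF-1, SATB1 and BACH2 are transcriptional regulators linked to the resting or less differentiated T cell, and the IL-7 receptor alpha chain (*Il7r*) carries a survival signal. FOXO1 drives transcription of *Il7r*, *Ccr7* and *Klf2*, the last of which acts on *S1pr1*, while FOXP1 helps to keep naive T cells quiescent.

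The skin libraries were shallow and stood apart from the SDLN libraries. They held 3748669 to 11741784 counts against 47243498 to 116158706, and 2911 to 5317 genes reached 1 CPM (counts-per-million, relative to each library's total) against 12397 to 13002. A count of 0 allows up to 3 counts, the floor used here, which is 0.800, 0.255 and 0.332 CPM in skin A, B and C. *Foxp3*, the gene of the sort, had 0, 330 and 1 counts in skin A, B and C, whereas SDLN A, B and C had 12208, 10133 and 1788. *Cd4* had 0, 1861 and 2 counts in skin and 14288 to 54756 in SDLNs. The libraries labelled skin Treg A and C thus lacked both sort genes above the floor, and the skin libraries are named below by label only. Other Treg genes were present in all of them. The summed level of 10 Treg genes, *Foxp3* included, was 5150, 7734 and 4947 CPM in skin A, B and C and 4795 to 6230 CPM in SDLNs. Of these 10, 7, 7 and 6 were above the floor in skin A, B and C, and *Izumo1r* had 0 counts in each. *Cd3g*, a chain of the T cell receptor complex, was at 607 to 888 CPM in all 3 skin libraries. The summed level of 17 myeloid genes was 34722 to 60966 CPM in skin and 443 to 779 CPM in SDLNs, with 14 of the 17 higher in every skin library. The summed level of 17 pan T cell genes was 5991 to 8492 CPM in skin and 12821 to 15095 CPM in SDLNs. In bulk samples, fewer cells of a type and less RNA per cell cannot be told apart.

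The 9 genes did not move as a block. The transcription factor genes *Tcf7*, *Lef1*, *Satb1* and *Bach2* and the receptor gene *Il7r* were at the floor, or within 1 count of it, in every skin library and fell below their SDLN levels by the test. The homing and egress receptors *Ccr7* and *S1pr1* were high in some skin libraries, as were *Foxo1* and *Foxp1*, and these 4 genes did not pass the test. By edgeR's quasi-likelihood test with Benjamini-Hochberg adjustment over all genes, 5 of the 9 were called lower at an adjusted p of 0.05 and 0 higher. Of the other 4, 0 had an unadjusted p under 0.05. Across the 13572 genes tested, 45.3% were called lower and 1.04% higher, so the count of 5 lies near that background.

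*Tcf7* encodes TCF-1, a partner of beta-catenin and a hallmark of naive and memory-like T cells. It lies on the minus strand at chr11:52252371-52283014 (GRCm38, as all positions here). It had 0 counts in each of the 3 skin libraries and 32942, 14128 and 14642 counts in SDLN A, B and C, which is 284, 194 and 309.9 CPM. The groups did not overlap, and the mean of 262.5 ± 60.7 CPM (SD, n = 3) in SDLNs made *Tcf7* at least 567-fold lower in skin, taking 3 counts per library as the upper limit. Its adjusted p was 0.00606.

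*Lef1*, the closest relative of *Tcf7*, encodes another HMG-box factor that binds the same DNA motif, and lies on the plus strand at chr3:131110471-131224356. It had 0, 2 and 4 counts in skin A, B and C, and the SDLN libraries had 41820, 24979 and 14873. In CPM these were 0, 0.170 and 0.443 against 360.0, 343 and 315. SDLN Tregs were thus close to each other, at 339 ± 22.8 CPM, and all skin libraries lay far below. The ratio of pooled SDLN to skin levels was 1413, with a 95% exact counting interval of 649 to 3851, and the log2 fold change of skin over SDLN was -10.40 (SE 1.78, adjusted p = 0.00529). Of the exon bases of *Lef1*, 13.7% are shared with the antisense gene *Gm43352*, which had 0 counts in skin. Since the strand setting is not stated, reads there cannot be told apart.

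*Satb1* encodes a genome organiser that anchors chromatin loops in T cells and their thymic precursors, and lies on the minus strand at chr17:51736187-51833290. It had 0 counts in all skin libraries and 8881, 4961 and 3860 counts in SDLN A, B and C, or 76.5, 68.1 and 81.7 CPM. It was at least 163-fold lower in skin (adjusted p = 0.00989).

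*Bach2* encodes a repressor that restrains effector differentiation, and lies on the plus strand at chr4:32238804-32586108. It had 0 counts in all skin libraries and 5374, 4136 and 1625 counts in SDLN A, B and C, or 46.3, 56.8 and 34.4 CPM. It was at least 99.1-fold lower in skin (adjusted p = 0.00491), and 5.40% of its exon bases are shared with the antisense gene *Bach2os*, also at 0 counts in skin. In the skin libraries, the only reads on any of these 4 transcription factor genes were therefore the 6 counts of *Lef1*.

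*Il7r*, on the minus strand at chr15:9505788-9530176, encodes the receptor among the genes that fell. It had 0, 0 and 2 counts in skin A, B and C, and the SDLN libraries had 13008, 7284 and 3193, which is 112, 100.1 and 67.6 CPM. The groups did not overlap. The ratio of levels pooled over libraries, which rests on 2 counts in skin, was 1219 with an exact interval of 337 to 10068, and the log2 fold change was -9.93 (SE 2.44, adjusted p = 0.0175). This call was lost without SDLN Treg A, B or C, where the adjusted p was 0.0558, 0.0583 and 0.0520.

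As examples from the 5 genes called lower, the bases around 1 annotated start each of *Tcf7*, *Lef1* and *Il7r* are shown, from RefSeq on GRCm38.p6. Each run covers 250 bases before and 50 after the start, in the direction of transcription. The *Lef1* window is the most upstream of 4, the *Tcf7* window is the one of 2 that holds a motif searched here, and *Il7r* had 1. Capitals mark a match to the forkhead motif TGTTTAC or its reverse complement.

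*Lef1*, chr3:131110047-131110346, plus strand: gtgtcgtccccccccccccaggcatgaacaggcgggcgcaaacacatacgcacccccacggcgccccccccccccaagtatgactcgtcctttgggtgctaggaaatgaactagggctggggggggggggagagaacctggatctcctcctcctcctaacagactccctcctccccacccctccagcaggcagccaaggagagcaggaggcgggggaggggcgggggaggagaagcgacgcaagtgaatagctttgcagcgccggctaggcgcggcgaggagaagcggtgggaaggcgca
*Tcf7*, chr11:52282546-52282845, minus strand: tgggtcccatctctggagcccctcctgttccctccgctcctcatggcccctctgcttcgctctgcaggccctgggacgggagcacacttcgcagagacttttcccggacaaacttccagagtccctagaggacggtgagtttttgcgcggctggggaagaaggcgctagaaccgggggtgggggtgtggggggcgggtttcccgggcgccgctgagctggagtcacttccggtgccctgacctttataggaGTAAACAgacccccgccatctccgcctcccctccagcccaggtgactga
*Il7r*, chr15:9529827-9530126, minus strand: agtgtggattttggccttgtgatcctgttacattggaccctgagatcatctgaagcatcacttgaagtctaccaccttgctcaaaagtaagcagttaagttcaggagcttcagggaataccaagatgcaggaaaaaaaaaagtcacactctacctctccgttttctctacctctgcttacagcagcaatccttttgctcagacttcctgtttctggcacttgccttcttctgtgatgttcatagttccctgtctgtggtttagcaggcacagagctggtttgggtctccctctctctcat

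The *Lef1* and *Tcf7* windows printed were rich in G and C, at 67.3% and 64.3%, with 18 and 17 CpG dinucleotides, whereas the *Il7r* window had 45.7% and 1 CpG. The other windows had 67.3%, 51.7% and 43.7% for *Lef1* and 76.3% for *Tcf7*, so this property depends on the start. Over all 32851 mouse windows of this length the medians were 52.7% and 7 CpG. Of the 9 genes, 7, all but *Ccr7* and *S1pr1*, matched 17 windows in that table. The forkhead letters TGTTTAC, searched on both strands, occurred in 1 of these 17 windows, the one of *Tcf7* printed above, and in 3.65% of all windows. The TCF and LEF letters CTTTGAA occurred in 1 of the 17, a *Foxp1* window, and in 5.14% of all windows, and CTTTGAT in 0 of the 17 and 3.73%. The BACH and AP-1 letters TGAGTCA occurred in 0 of the 17 and 5.20%. The motifs searched do not overlap each other, and such matches describe the letters only.

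*Ccr7* (minus strand, chr11:99144196-99155077) differed between the skin libraries more than between the tissues. It had 859, 2401 and 1 counts in skin A, B and C, or 229, 204 and 0.111 CPM. SDLN A, B and C had 26945, 15261 and 10847 counts, or 232, 210 and 229.6 CPM. The libraries labelled skin A and B were thus at or just under the SDLN range and the library labelled skin C had a single count, although its total was larger than that of the library labelled skin A. The log2 fold change was -0.85 (SE 1.83, adjusted p = 0.866). Over 18 alternative fits it ranged from -5.44 to 6.45, and 0 of them called it lower or higher. It turned positive, to 0.37, when libraries were scaled to the pan T cell sum and to 6.45 with upper quartile scaling. Those 2 scalings moved the median log2 fold change of the 1623 genes above the floor in every library from 0.28 to 1.23 and to 6.82, and *Ccr7* was below that median under each of the 3.

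Some genes of the lists examined were above the floor in the same skin libraries as *Ccr7*, and those given here were chosen after their values were seen. *Ccl22*, a chemokine made by activated dendritic cells, was at 436, 132 and 0 CPM in skin A, B and C and at no more than 1.11 CPM in SDLNs. *Gpr183*, an oxysterol receptor of lymphocytes and dendritic cells, was at 349, 135 and 0 CPM in skin and at 30.6 to 50.2 CPM in SDLNs. *Adgre1*, the macrophage marker F4/80, was at 845, 636 and 0.111 CPM in skin. The pattern was not limited to genes of myeloid cells. *S1pr1* was at 18.9, 268 and 0 CPM in skin A, B and C. From the resting state genes described below, *Myb* was at 21.6, 190.5 and 0 CPM and *Ramp1* at 199, 12.6 and 0 CPM. Most myeloid genes did not share this pattern, and 14 of the 17 were above the floor in skin C. Of the 10 dendritic cell genes examined, 4 (*Fscn1*, *Zbtb46*, *Xcr1* and *Clec9a*) had no count in any skin library, and others were found in other libraries, such as *Batf3* in A and C, *Itgax* in B and *Ccl17* in C. The summed list was 1285 to 1824 CPM in skin against 485 to 585 CPM in SDLNs, and most of it was *Cd83*, an activation marker also found in T cells, at 1068 to 1338 against 471 to 576 CPM. The part of dendritic cells or macrophages in the *Ccr7* values was not tested.

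*S1pr1* (minus strand, chr3:115710433-115715072) was found mostly in the one skin library that held *Foxp3* and *Cd4*. It had 71, 3149 and 0 counts in skin A, B and C, or 18.9, 268 and 0 CPM. SDLN A, B and C had 46571, 36090 and 15764 counts, or 401, 496 and 334 CPM. Every skin library was below every SDLN library, which held for 6 of the 9 genes and for 53.6% of all genes tested. The log2 fold change was -2.06 (SE 2.28, adjusted p = 0.646). It was -5.97 without the library labelled skin B and 2.07 with upper quartile scaling, and limma voom with sample quality weights called it lower (-7.57, adjusted p = 0.0314).

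*Foxo1* (plus strand, chr3:52268336-52353221) had the reverse pattern to *Ccr7* across the skin libraries. It had 0, 48 and 2171 counts in skin A, B and C, or 0, 4.09 and 240.3 CPM, against 93.4, 83.3 and 85.8 CPM in SDLN A, B and C. The library labelled skin C was thus above, and the libraries labelled skin A and B below, all 3 SDLN libraries. The log2 fold change was 0.22 (SE 2.47, adjusted p = 0.981), and without the library labelled skin C it was -5.46 (adjusted p = 0.126). In skin, the library with the most *Foxo1* was the one with the least *Ccr7* and *S1pr1*, genes downstream of FOXO1 in T cells. *Klf2*, another such gene, went the other way, at 0, 0 and 31.8 CPM in skin A, B and C and 17.8 to 39.2 CPM in SDLNs. *Il7r* had its only 2 skin counts in skin C. Only 3 skin libraries bear on these orders.

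*Foxp1* (minus strand, chr6:98925338-99522721) was the only one of the 9 genes above the floor in all 3 skin libraries. It had 144, 4159 and 1573 counts in skin A, B and C, or 38.4, 354 and 174 CPM, against 330.0, 311 and 210.3 CPM in SDLN A, B and C. The library labelled skin B was above every SDLN library and the other two were below. The log2 fold change was -0.46 (SE 0.994, adjusted p = 0.868), and it was 0.15 when scaled to the pan T cell sum and 3.65 with upper quartile scaling, below the shifted medians given above.

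**Figure D1:**
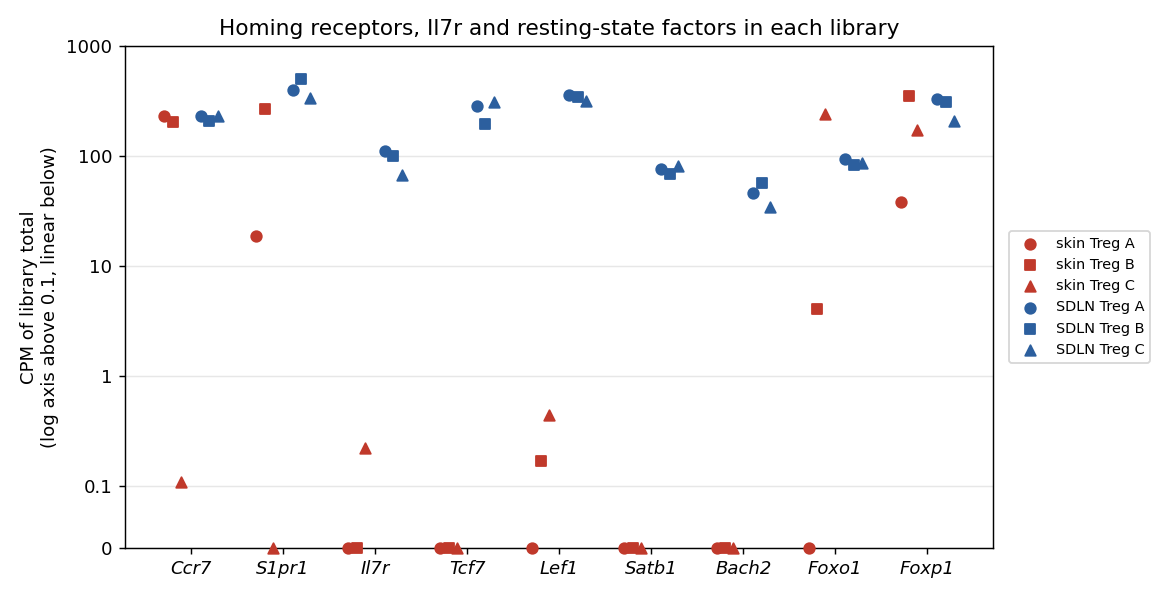
CPM of the library total for each of the 9 genes in the 3 skin Treg libraries (red) and 3 SDLN Treg libraries (blue), with marker shape for library A, B or C and an axis that is logarithmic above 0.1 and linear below. The SDLN points of a gene lie close together, while skin points are under 1 CPM for *Il7r*, *Tcf7*, *Lef1*, *Satb1* and *Bach2* and spread widely for *Ccr7*, *S1pr1*, *Foxo1* and *Foxp1*.

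Since *Foxp3* and *Cd4* were above the floor only in the library labelled skin B, that library was also set alone against the 3 SDLN libraries. A single library shows no spread within skin, so only effect sizes are given. In it *Tcf7*, *Satb1*, *Bach2* and *Il7r* had 0 counts and *Lef1* had 2. *Foxo1* joined them at a log2 fold change of -4.37 (adjusted p = 0.000232), which made 6 of 9, where the same fit called 46.0% of 18473 genes lower. *Ccr7*, *S1pr1* and *Foxp1* were within 0.55 of SDLN Tregs on the log2 scale, at -0.08, -0.55 and 0.38. The library labelled skin B therefore held *Ccr7* at 204 CPM and *S1pr1* at 268 CPM beside 0 counts of *Tcf7*.

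How often a gene goes undetected depends on its level, so the 9 genes were set beside all genes of like level in SDLNs. Between 300 and 1000 CPM, 3.09% of 485 genes were called lower, *Lef1* among them but not *S1pr1*. At that level 1.03% of genes had no skin library above the floor, and *Lef1*, with 4 counts in the library labelled skin C, was just outside these. Between 100 and 300 CPM, 10.6% of 1760 genes were called lower and 8.47% were at the floor throughout skin, and *Tcf7* belonged to both while *Ccr7* and *Foxp1* belonged to neither. Between 30 and 100 CPM, 31.8% of 3649 genes were called lower and 28.7% had no skin library above the floor. *Il7r*, *Satb1* and *Bach2* belonged to both and *Foxo1* to neither, so at this level the values of the first 3 were common ones. The skin libraries showed the *Ccr7* pattern, above the floor in A and B but not in C, in 5.57% of genes between 100 and 300 CPM.

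**Figure D2:**
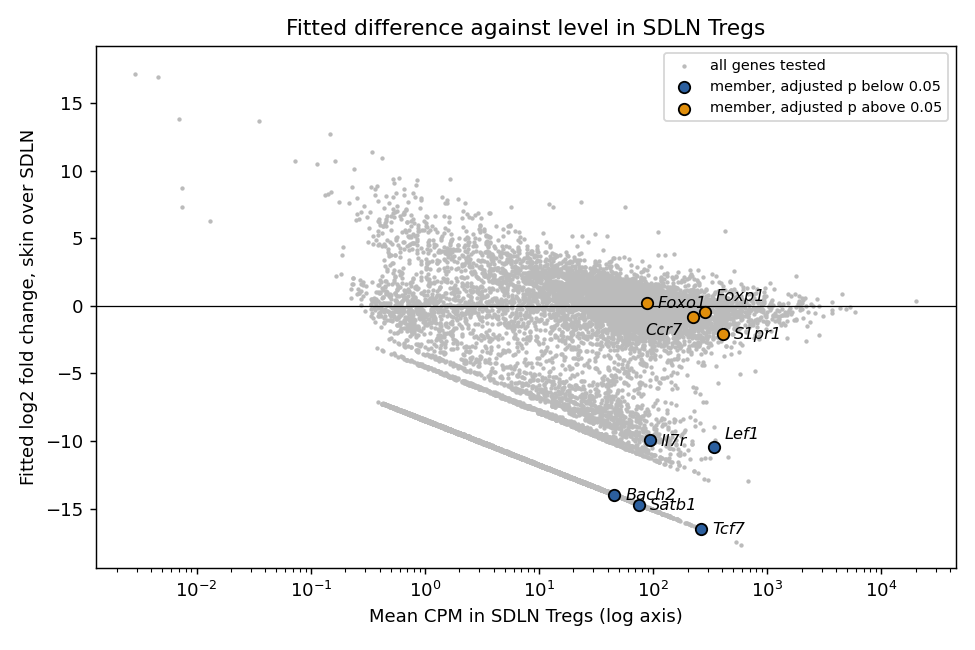
Fitted log2 fold change of skin over SDLN Tregs against the mean SDLN level in CPM (log axis) for the 13572 genes tested (grey), with the 9 genes in blue where the adjusted p was below 0.05 and in orange where it was above. *Tcf7*, *Satb1* and *Bach2* lie on the lowest diagonal, which holds genes at 0 counts in all skin libraries and whose fitted values depend on the prior count, and *Ccr7*, *S1pr1*, *Foxo1* and *Foxp1* lie between -2.06 and 0.22.

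Summed over the 9 genes, skin A, B and C had 286.5, 831 and 415 CPM and SDLN A, B and C had 1935, 1861 and 1668 CPM. Set against pan T cell counts, which are also lower in skin, the sum was 47.8, 98.1 and 48.9 per 1000 pan T cell counts in skin and 140.1, 145 and 110 in SDLNs. The groups did not overlap on either scale. By this second measure *Ccr7* was at 38.3, 24.1 and 0.0130 in skin A, B and C against 15.2 to 16.8 in SDLNs, so that the libraries labelled skin A and B lay above the SDLN range. *Foxp1* was at 6.41, 41.8 and 20.5 in skin against 13.9 to 24.2 in SDLNs. *Tcf7*, *Satb1* and *Bach2* were at 0 in skin on both. In all, 10 of the 27 pairs of gene and skin library were above the floor. All 9 genes stayed above the floor in every SDLN library drawn down to 3748669 counts, the total of the library labelled skin A. At SDLN levels of 34.4 CPM or more this outcome was set beforehand. The draw copies the smaller total only, not the smaller number of genes found in skin.

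Within SDLN Tregs the genes could be ordered by level per kilobase of exon. *S1pr1* stood at 135 ± 26.7 CPM per kilobase (SD, n = 3), *Ccr7* at 113 ± 6.20 and *Tcf7* at 73.9 to 118, and neighbours among these 3 overlapped. *Lef1* followed at 38.6 ± 2.60, then *Foxp1* at 20.6 ± 4.67 and *Il7r* at 20.0 ± 4.93, the last pair overlapping. *Foxo1* was at 10.1 ± 0.608, and *Bach2* at 4.61 ± 1.13 and *Satb1* at 3.96 ± 0.359 overlapped at the bottom. Dividing by the longest transcript instead of all exons kept the rank of 6 genes, raised *Lef1* to 92.8 and *Satb1* to 12.1 CPM per kilobase, and placed *Satb1* above *Foxo1* and *Bach2*. In the library labelled skin B, *Ccr7* at 103 and *S1pr1* at 88.0 CPM per kilobase also stood above the other 7 genes.

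**Figure D3:**
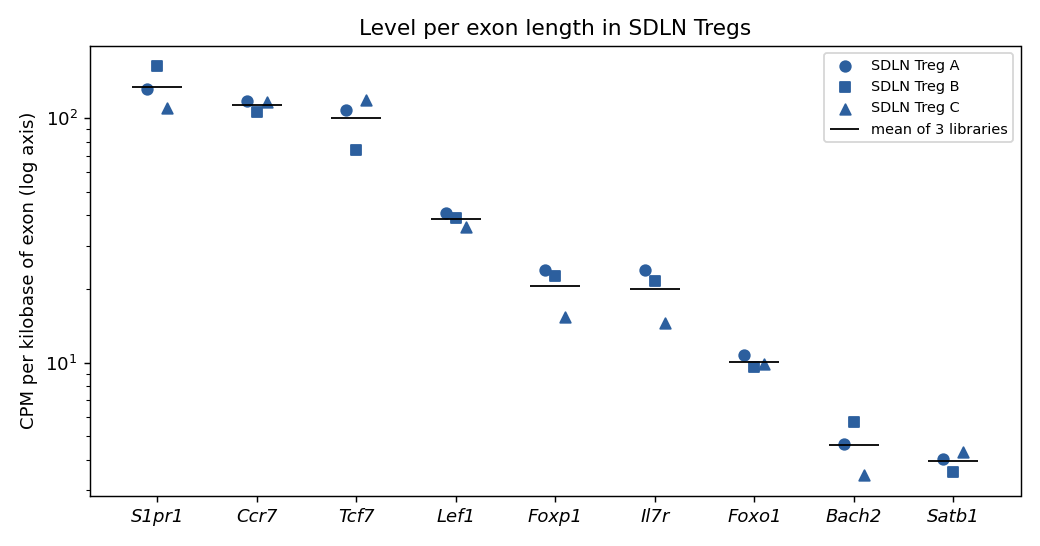
CPM per kilobase of exon (log axis) of the 9 genes in SDLN Tregs A (circles), B (squares) and C (triangles), with a line at the mean of the 3. *S1pr1*, *Ccr7* and *Tcf7* are the highest and *Bach2* and *Satb1* the lowest, with overlapping libraries in each of these sets.

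The other genes of T cell homing and egress gave a mixed picture. Of 30 matched and tested, 6 were called lower and 1 higher in skin, against 45.3% and 1.04% of all genes. Most of these 30 are high in SDLNs, where fewer genes of any kind were called. Of the 8 between 30 and 100 CPM 2 were lower (31.8% of all genes at that level), of the 8 between 100 and 300 CPM 0 (10.6%) and of the 9 between 300 and 1000 CPM 2 (3.09%). Their median log2 fold change was -0.27, against -2.21 for all genes, or -1.34 with genes at 0 counts throughout skin set at their bound. *Cxcr5*, the receptor for entry to B cell follicles, fell from 35.7 ± 9.24 to 0.0369 CPM (adjusted p = 0.00507), and *Icam2*, an integrin ligand, fell from 41.4 ± 8.38 to 0 CPM (adjusted p = 0.00435).

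Among the genes named by level, 3 that passed were above the floor in every skin library. *Itgal*, the alpha chain of LFA-1, was at 84.6 ± 62.4 CPM in skin and 602 ± 186 in SDLNs (log2 fold change -2.90, adjusted p = 0.0412). *Rac2*, a GTPase of cell motility, had a log2 fold change of -0.96 (adjusted p = 0.0191). *Rgs1*, which dampens chemokine receptor signalling, was the gene that rose, from 219 ± 56.8 to 958 ± 494 CPM (log2 fold change 2.18, SE 0.636, adjusted p = 0.0342). The calls of these 3 were fragile. That of *Rgs1* was lost without the library labelled skin C or any 1 SDLN library (adjusted p up to 0.118), that of *Itgal* without the library labelled skin A or any 1 SDLN library (up to 0.144), and that of *Rac2* without SDLN Treg A or B (up to 0.126). Over all 19 alternatives, *Rgs1* was called in 11 (adjusted p up to 0.175), *Rac2* in 10 (up to 0.942) and *Itgal* in 9 (up to 0.274). The sign of *Rac2* turned with pan T cell and upper quartile scaling and that of *Itgal* with upper quartile scaling, but both stayed below the median of the 1623 genes above the floor in every library, which those scalings shift as given above for *Ccr7*. *Arhgdib* (-0.51, adjusted p = 0.448), *Coro1a* (-1.06, adjusted p = 0.140) and *Itgb7* (-0.21, adjusted p = 0.786) were the highest in SDLNs among those that did not pass.

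Other genes tied to the resting T cell state also differed among themselves. Of 37 tested, 10 were called lower and 2 higher, and for 9 of the 10 no skin library was above the floor. Beside 45.3% of all genes this share is small, but of the 13 between 30 and 100 CPM in SDLNs 4 were lower (31.8% of all genes at that level) and of the 16 between 100 and 300 CPM 3 (10.6%). Their median log2 fold change was -1.36, close to that of all genes with genes at 0 counts set at their bound (-1.34). *Id3*, an inhibitor of E proteins, fell from 229 ± 63.1 to 0.0369 CPM (adjusted p = 0.00595). *Nsg2* fell from 140 ± 40.2 and *Bcl2*, a survival gene, from 113 ± 17.9 CPM, both to 0 counts (adjusted p = 0.0114 and 0.0117), although both calls were lost without SDLN Treg A, B or C (adjusted p up to 0.0673 and 0.0634). *Elf4*, a restraint on T cell proliferation, and *Actn1*, an actin crosslinker, fell as well (adjusted p = 0.00799 and 0.0105), in 16 of 18 alternatives each, but not with upper quartile scaling (adjusted p = 0.368 and 0.412).

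The 2 of 37 genes called higher were *Btg2* and *Tsc22d3*, where 1.04% of all genes tested were called higher. Which cells in the libraries carried these 2 rises was not tested. *Btg2*, an antiproliferative gene, was at 934 ± 679 CPM in skin and 254 ± 17.8 in SDLNs (log2 fold change 1.69, SE 0.455, adjusted p = 0.0241). *Tsc22d3*, which encodes the glucocorticoid-induced leucine zipper GILZ, was at 455 ± 166 and 118 ± 11.2 CPM (log2 fold change 1.93, SE 0.621, adjusted p = 0.0466). Neither call held without SDLN Treg A, B or C (adjusted p up to 0.134 and 0.203), and that of *Tsc22d3* was also lost without the library labelled skin C. Over all 19 alternatives *Btg2* was called in 12 and *Tsc22d3* in 9. *Ets1* (0.27, adjusted p = 0.936), *Gata3* (-0.03, adjusted p = 0.988) and *Slfn2* (-1.36, adjusted p = 0.741) did not pass.

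Of 23 paralogs and partners of the 9 genes, 19 were tested. Of these, 4 were called lower and 0 higher, against 45.3% and 1.04% of all genes. Their median log2 fold change was -1.47. With genes at 0 counts set at their bound, that of all genes was -1.34. The 4 were among the 10 tested under 30 CPM in SDLNs, where 62.9% of all genes were called lower. *Tle4*, a corepressor used by TCF-1 and LEF-1, fell from 16.7 to 29.3 CPM in SDLNs to 0 counts in skin (adjusted p = 0.00322). *Tcf7l2*, another TCF factor, fell from 6.94 ± 4.19 CPM (adjusted p = 0.00357). *S1pr2* fell from 17.2 ± 2.31 CPM (adjusted p = 0.00322) and *Mafk*, a small Maf partner of BACH2, from 20.9 ± 9.77 CPM (adjusted p = 0.00424). None of these 4 exceeded the floor in a skin library. *Il2rg*, the chain that pairs with the product of *Il7r*, had a log2 fold change of 0.19 (adjusted p = 0.938), and the kinases *Jak1* and *Jak3* that act below it had -1.16 (adjusted p = 0.829) and -3.17 (adjusted p = 0.486).

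**Figure D4:**
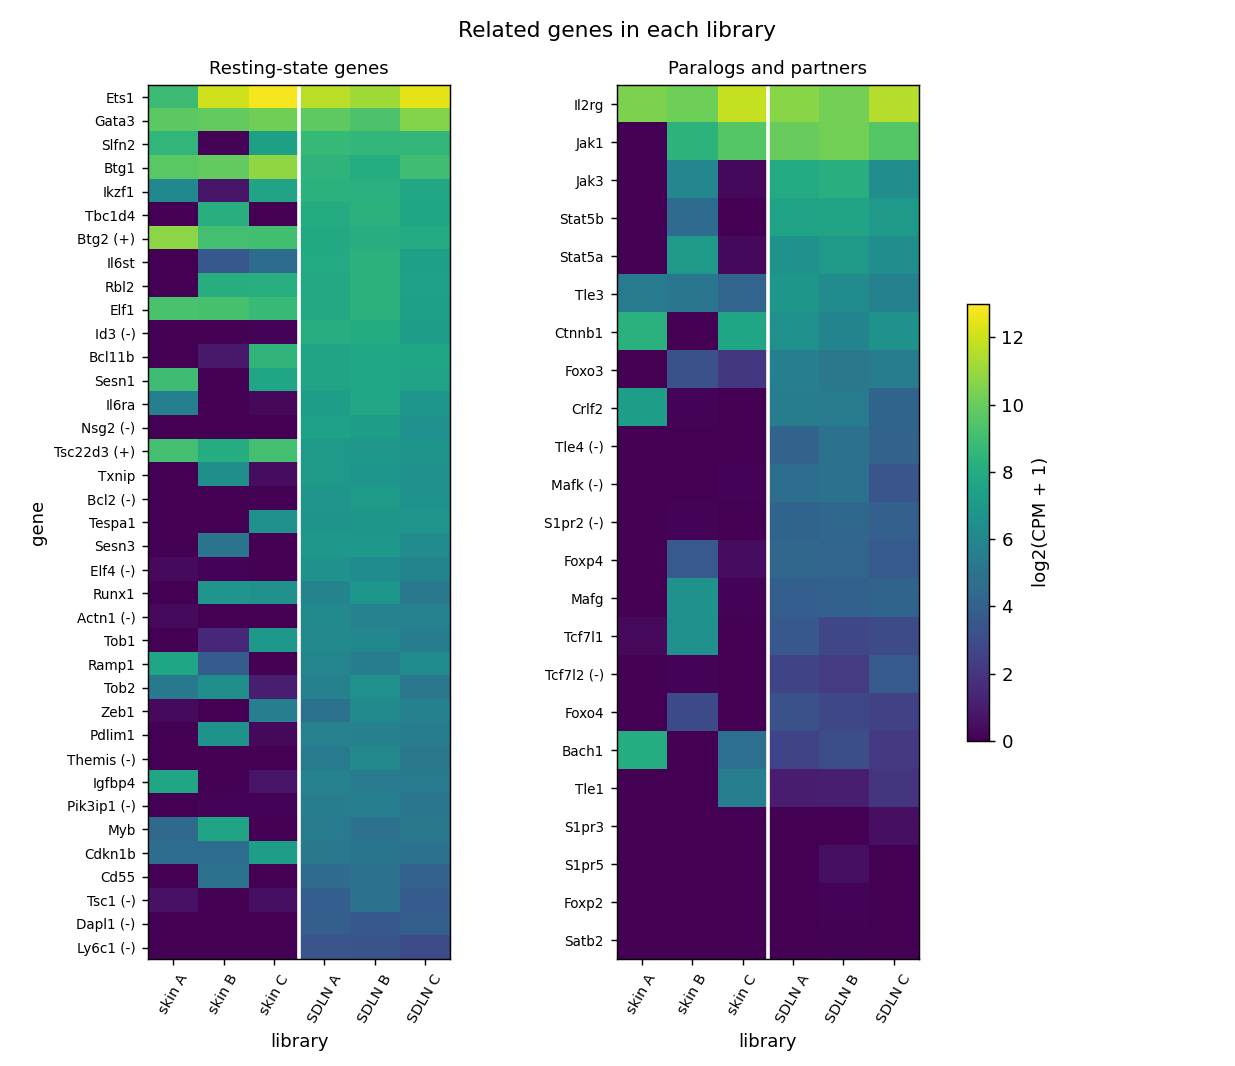
Heatmaps of log2(CPM + 1) for the 37 resting state genes and the 23 paralogs and partners in the 6 libraries, ordered by SDLN level, with (+) for genes called higher in skin and (-) for genes called lower. Most genes called lower, such as *Id3* and *Tle4*, are dark in all 3 skin libraries, and many of the others are dark in some skin libraries and bright in others.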

How the data were processed

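RNA was sequenced from Tregs sorted from skin and from SDLNs, with 3 libraries per tissue, each from pooled mice. Per the labels and the study's methods, the authors trimmed reads with Trimmomatic 0.36, mapped them to GRCm38 with STAR 2.5.2b and counted them per gene with featureCounts (Subread 1.5.2), and the deposited values are raw counts with no normalization. The annotation release, strand setting and duplicate handling are not given in the sources used here. Reads copied in PCR count separately, so intervals and floors cover counting error only. The tissue field reads skin for all samples, so groups came from titles. Columns are lettered and titles numbered, and libraries are named by tissue and letter. No 2 libraries were identical.

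The whole table was fitted with edgeR 4.0.16 in R 4.3.3 (filterByExpr, TMM scaling, robust quasi-likelihood fit, tissue as the only term, Benjamini-Hochberg adjustment over 13572 genes). The study's methods state no test for this comparison. SEs were derived from the F statistic. CPM are counts scaled to the library total. The common dispersion was 2.04, a biological coefficient of variation of 1.43, and p-values measure the spread between pooled samples. Scripts were tested on simulated data.

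Alternatives were other scalings, DESeq2 1.42.0, limma 3.58.1, other filters and thresholds, libraries drawn down to 3748669 counts, each library left out, and, chosen after seeing the data, the library labelled skin B alone and a block on the column letter. The 9 genes and the lists were chosen with earlier results of these data known. All 9 genes and the sort genes are named. From each list, the text names genes called higher, the 5 called lower and the 3 not called with the highest SDLN level, except 1 item that is not reported here. *Cd97* was not matched, the symbol *Adgre5* being listed too. Protein comparisons planned for pairs of the genes were not made here.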

Additional observations from a re-analysis of the deposited data

How the results depend on the processing

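*Tcf7*, *Lef1*, *Satb1* and *Bach2* were called lower in all 18 alternative fits that tested them, and *Il7r* in 14 of 18. The count of the 9 genes called lower, 5, ranged from 4 to 5 when 1 library was left out, and that called higher stayed 0 to 0. Requiring at least 10 counts in every library left 1 of the 9 to test (*Foxp1*) and gave 0 lower. By the same requirement the homing list gave 1 lower and 0 higher, the resting list 0 and 0, the partner list 0 lower, and across all genes 13 lower and 77 higher of 1396 tested, since genes absent from skin are then not tested. Left-out libraries gave 4 to 9 lower and 0 to 2 higher for homing, 8 to 15 and 0 to 3 for resting, 4 to 11 and 0 to 1 for partners, and 4983 to 7787 and 71 to 324 for the table. The highest partner count, 11, came without the library labelled skin B.

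Homing genes called higher were 2 with DESeq2 size factors, library totals, pan T cell scaling and the DESeq2 Wald test, and 0 with upper quartile scaling, no filter and a threshold of 0.01. Resting genes called higher were 1 with TMMwsp or without robust estimation, 4 with pan T cell scaling or the Wald test, and 0 with upper quartile scaling, no filter and a threshold of 0.01. Resting genes called lower were 17 by limma voom and 6 at 0.01, and partner genes called lower 10 by limma voom. For the table, 4011 were lower in drawn-down libraries, and 270 (pan T cell scaling), 404 (Wald test), 77 (no filter) and 61 (0.01) were higher. The library labelled skin B alone gave 12 lower and 4 higher for homing, 22 and 6 for resting, 11 and 2 for partners, and 1951 higher for the table.

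Log2 fold changes of genes that passed no main test turned sign for *Ccr7* (6.45 with upper quartile scaling, 0.37 with pan T cell scaling), *S1pr1* (2.07, upper quartile) and *Foxp1* (3.65, upper quartile; 0.15, pan T cell; 0.38, the library labelled skin B alone). *Foxo1* turned to -0.10 with library totals, -3.13 by limma voom, -0.033 in drawn-down libraries and -4.37 with the library labelled skin B alone, and ranged from -5.46 to 0.78 over left-out libraries. *S1pr1* reached -7.57 by limma voom, and the lowest value of *Ccr7* over its alternatives was -5.44. The causes were not tested.

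The replicate numbers of the labels could not be used as a block, since letters name the columns. A replicate block on the column letter was added after seeing the data, assuming that a letter marks the same pool of mice, which is not stated. Over 13572 genes, deviations of same-letter libraries correlated at 0.05, -0.01 and 0.09 for A, B and C, and not every library correlated best with its own letter. With this block, 4 of the 9 genes were lower (*Il7r* had an adjusted p of 0.0819, and *Id3* one of 0.0507), *Foxo1* had -4.21, the resting list gave 5 lower and 1 higher, and across all genes 61 were higher.

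A count of 0 in skin allows 0.255 to 0.800 CPM, and lower levels were not detectable. Of genes at 300 to 1000 CPM in SDLNs, 70.5%, 96.5% and 94.0% were above the floor in skin A, B and C.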
